A study of Mus musculus with 17 samples.

Results

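The genes by which endothelial cells take up fatty acids were followed in sorted bone marrow endothelium of mice with and without Endoglin. The set holds 9 of the 49585 gene identifiers in the deposited tables and was taken by symbol, with no measured value in the rule. It comprises Gpihbp1 and Lpl, which act on lipoproteins at the vessel wall, Cd36 and Slc27a3, which act at the plasma membrane, Fabp4 and Fabp5, which bind fatty acids in the cytosol, and the transcription factor genes Meox2, Tcf15 and Pparg. Wild-type mice (WT) were compared with mice of the line Cdh5:CreERT2-Eng f/f (KO). In that line a Cre recombinase made active by tamoxifen is driven by the Cdh5 promoter, which is active in endothelium, and removes exons 5 and 6 of Eng. Mice of both genotypes were labelled as tamoxifen-injected, the injections being given to mice aged 8 weeks, and endothelium was taken 2 or 4 weeks later. At 2 weeks there were 4 WT libraries (f1, f4, m2, m3) and 4 KO libraries (f1, f4, m2, m3). At 4 weeks there were 5 WT libraries (f, f3, m1, m2, m3) and 4 KO libraries (f2, m1, m2, m3). The letter gives the sex and the number is the one in the labels. The labels do not say whether WT mice carried the Cre transgene, and their genotype is given as WT only. Cells lacking CD45 and Ter119 and carrying CD31 and Sca1 were sorted from crushed long bones and sequenced with SmartSeq2, a full-length method for polyadenylated RNA. The labels do not say whether each library came from a different mouse, so p-values measure only the spread between these libraries, which may be technical.

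In capillaries, GPIHBP1 carries lipoprotein lipase, the product of Lpl, to the luminal face of the endothelial cell, where the enzyme releases fatty acids from triglyceride-rich lipoproteins. CD36 and proteins of the FATP family, to which SLC27A3 belongs, take part in passing fatty acids across the membrane, and FABP4 and FABP5 carry them through the cytosol. MEOX2 and TCF15 act as partners that keep fatty acid uptake genes active in heart capillaries, and PPAR gamma is a nuclear receptor that senses lipids and has Cd36 and Fabp4 among its targets.

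Total counts were 26705337 to 40882715 per library at 2 weeks and 20477400 to 33726630 at 4 weeks. The time points differed in more than age: 10886 to 13583 genes were detected at 2 weeks with 22.2% to 29.5% of counts from the mitochondrial genome, against 15996 to 21235 genes and 4.66% to 8.99% at 4 weeks. All 8 endothelial markers had counts in every group, and the leukocyte gene Ptprc (CD45) reached 15.6 CPM, the count per mega-count of the library total, in 1 library and was at most 2.57 CPM in the 4-week WT and 0.91 CPM in the 4-week KO libraries. Eng, the gene targeted in the KO, was at 1116, 1083, 705 and 1307 CPM in 2-week WT and 225, 266, 347 and 259 CPM in 2-week KO libraries. At 4 weeks Eng was at 2594, 2633, 2400, 2735 and 2574 CPM in WT and 873, 322, 1647 and 274 CPM in KO libraries, so KO library m2 kept the highest Eng level of its group. The 2-week KO libraries m2 and m3 stood apart by a summed level of 9 neutrophil markers of 4104 and 3150 CPM, against 22.6 to 238 CPM in the other 2-week libraries. The 9 libraries at 4 weeks fell into 2 clusters over 6705 genes, with WT f, m1 and m2 and KO m1 and m2 in the first, and WT f3 and m3 and KO f2 and m3 in the second. Summed levels of 10 sinusoidal markers were 795 to 1096 CPM in the first cluster and 349 to 584 CPM in the second, and those of 9 stromal markers 2719 to 3640 and 1132 to 1569 CPM. Il6st had the highest mean of the sinusoidal markers, at 106 to 616 CPM in 4-week WT and 128 to 554 CPM in 4-week KO. Stab2, of the same list, was at 12.5 to 53.1 CPM in 4-week WT and 15.0 to 37.7 CPM in 4-week KO.

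Fabp4 and Cd36 were among the nuclear genes with the most counts in these libraries, by a rank without correction for gene length. Fabp4 (ENSMUSG00000062515, chromosome 3, 10204088 to 10208576, minus strand, GRCm38) ranked 1 or 2 among nuclear genes by CPM in every 4-week library and 2 to 5 in every 2-week library. Cd36 (ENSMUSG00000002944, chromosome 5, 17781690 to 17888801, minus strand) ranked 3 to 12 at 4 weeks and 8 to 18 at 2 weeks. The 9 genes together took 1.61% to 1.79% of all counts in 2-week WT, 1.40% to 1.87% in 2-week KO, 1.85% to 2.34% in 4-week WT and 1.93% to 2.42% in 4-week KO libraries. Most of the set's counts therefore came from these 2 genes, and the sum says little about the others.

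Levels of different genes were compared per kb of merged exons. In 4-week WT libraries the level was 2511 ± 330 CPM per kb for Fabp4, 1742 ± 221 for Cd36 and 534 ± 105 for Gpihbp1 (SD, n = 5). Below these came Meox2 at 174 ± 14.8, Lpl at 110 ± 30.6 and Fabp5 at 105 ± 18.6 CPM per kb (SD, n = 5). Pparg was at 39.1 ± 6.26, Tcf15 at 37.5 ± 18.5 and Slc27a3 at 14.6 ± 5.60 CPM per kb (SD, n = 5). Lpl and Fabp5, and likewise Pparg and Tcf15, did not differ beyond their spread. The ratio of Fabp4 to Cd36 per kb was 1.45 ± 0.22 over the 5 WT libraries and above 1 in each. In 2-week WT libraries the first 5 places were taken by Fabp4 (2538 ± 166 CPM per kb), Cd36 (1008 ± 135), Gpihbp1 (278 ± 19.0), Meox2 (132 ± 40.8) and Fabp5 (104 ± 23.9), with Lpl sixth at 40.4 ± 9.32 (SD, n = 4). The order depends on the exon length used for Lpl: with the longest transcript in place of merged exons its 4-week WT level was 281 CPM per kb, above Meox2 at 174.

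**Figure D1:**
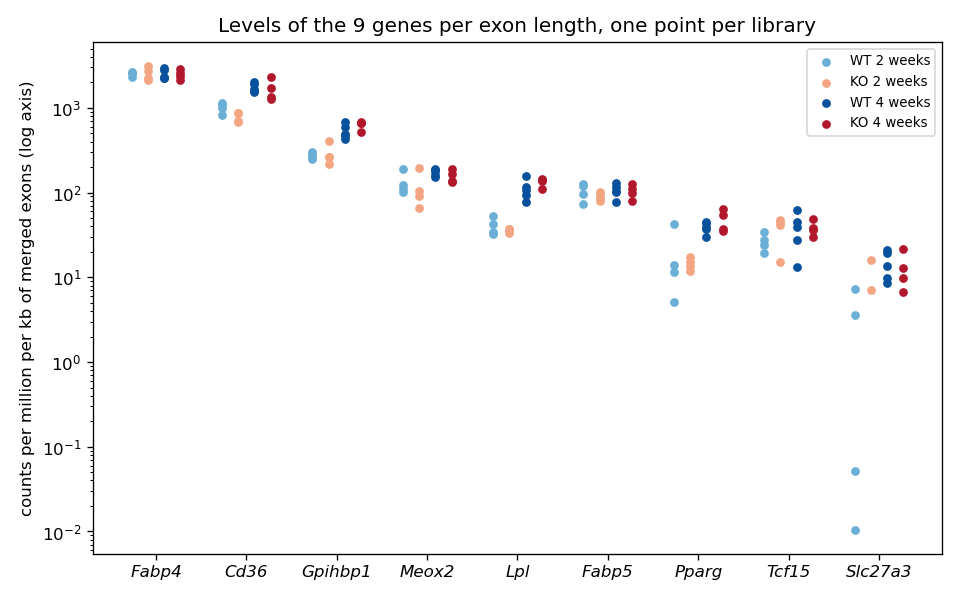
Levels of the 9 genes in CPM per kb of merged exons on a log axis, with 1 point per library and colours for the 4 groups; points at 0 are not drawn (Slc27a3 in KO libraries f1 and m3 at 2 weeks). Fabp4 lies highest in all groups, Slc27a3 lies lowest by group mean, and Lpl stands higher at 4 weeks than at 2 weeks.

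The members hold separate loci, and the RefSeq promoter table used here matched 4 of the 9 (Cd36, Meox2, Pparg and Slc27a3). The 250 bases before a RefSeq start of Cd36 and of Meox2 are shown, because Cd36 is the member with the lowest unadjusted p in KO against WT at 2 weeks and Meox2 encodes a factor for this gene set. Both are on GRCm38.p6 and read 5′ to 3′ on the gene's own strand, chr5:17835897-17836146 (minus) and chr12:37108290-37108539 (plus), and capitals mark the motif letters found.
Cd36: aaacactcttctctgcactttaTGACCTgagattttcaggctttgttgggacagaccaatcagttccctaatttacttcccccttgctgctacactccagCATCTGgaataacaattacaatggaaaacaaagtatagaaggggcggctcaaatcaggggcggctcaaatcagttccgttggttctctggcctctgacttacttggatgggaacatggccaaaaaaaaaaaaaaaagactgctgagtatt
Meox2: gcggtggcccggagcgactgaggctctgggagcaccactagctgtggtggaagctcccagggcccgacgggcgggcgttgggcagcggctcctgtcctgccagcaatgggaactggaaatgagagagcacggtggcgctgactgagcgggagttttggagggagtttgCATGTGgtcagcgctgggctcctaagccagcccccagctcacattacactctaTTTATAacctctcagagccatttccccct
The Cd36 start used here is an internal one, 52905 bases inside the annotated 5′ end of the gene, and the Meox2 start is the annotated end itself. The motifs searched on both strands were AGGTCA, the core of nuclear receptor sites, TAATTA, a core of homeobox sites, the E-box CANNTG and TATAAA. The Cd36 window held TGACCT, the reverse complement of AGGTCA, 228 bases before the start and the E-box CATCTG 150 bases before it, and its GC content was 43.2%. The Meox2 window held the E-box CATGTG 82 bases and TTTATA, the reverse complement of TATAAA, 29 bases before the start, with a GC content of 62.0%. Over 32851 mouse promoter windows of the same length, AGGTCA was found in 14.0%, TAATTA in 4.84%, CANNTG in 66.2% and TATAAA in 12.4%, so an E-box in a window is common. These matches describe the sequence and not a bound site.

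In the comparison of KO with WT, none of the 9 genes passed an adjusted p of 0.05 in edgeR's quasi-likelihood test at 2 weeks or at 4 weeks, and the genotypes overlapped in CPM for all 9 genes at both times. The background was the same: 0 of 10477 genes tested at 2 weeks (0%) and 0 of 15209 at 4 weeks (0%) passed. At an unadjusted p under 0.05 there was 1 member at each time, Cd36 at 2 weeks and Gpihbp1 at 4 weeks, against 2.63% and 2.77% of all genes. DESeq2 called none of the 9 at either time, with 149 genes called over the whole table at 2 weeks and 17 at 4 weeks. Genotypes that do not overlap were seen in 3.36% of genes at 2 weeks and 1.19% at 4 weeks, and in 0 members. The median log2 fold change over the 9 was -0.17 at 2 weeks and 0.01 at 4 weeks, against -0.06 and 0.01 over all genes tested. Eng itself had log2 fold changes of -1.96 (adjusted p = 0.61) and -1.72 (adjusted p = 1), so a difference of that size was not called by edgeR either, while DESeq2 called Eng at 2 weeks (adjusted p = 1.63e-13).

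**Figure D2:**
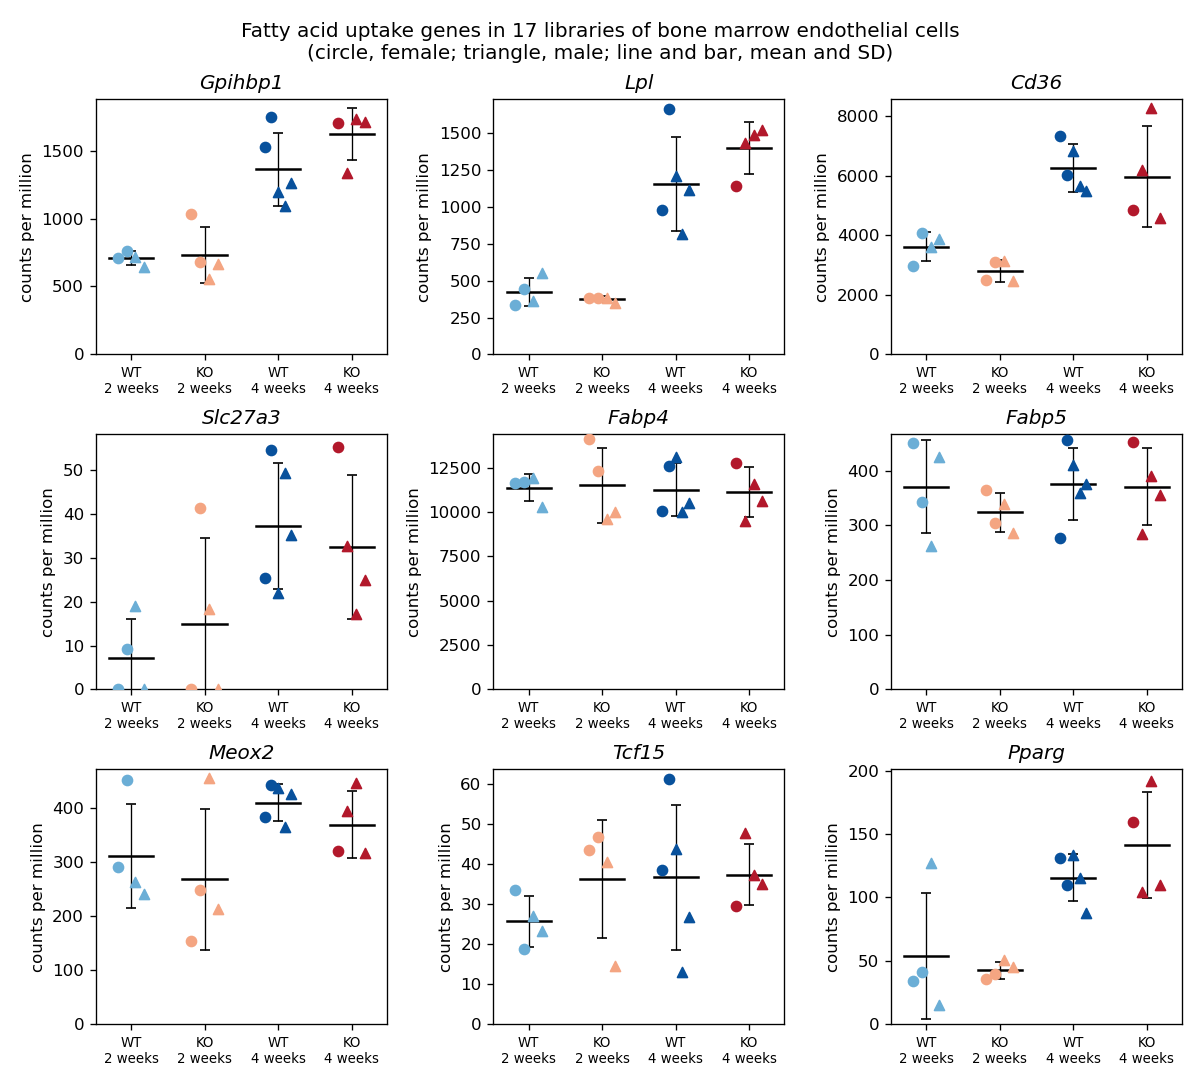
CPM of each member in each of the 17 libraries (circles, females; triangles, males), with the mean (line) and SD (bar) of each group; every axis starts at 0. WT and KO libraries overlap in every panel at each time, and Gpihbp1, Lpl and Cd36 lie higher at 4 weeks than at 2 weeks in both genotypes.

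The genes of lipolysis at the vessel wall came first. Gpihbp1 (ENSMUSG00000022579, chromosome 15, 75596628 to 75599481, plus strand) encodes the anchor that holds lipoprotein lipase on the capillary. At 2 weeks it was at 712, 761, 719 and 644 CPM in WT libraries f1, f4, m2 and m3 and at 1032, 681, 553 and 668 CPM in the KO libraries of the same names. KO library f1 was above all WT libraries and KO m2 below all of them, and the log2 fold change was 0.03 ± 0.15 (SE, adjusted p = 1). At 4 weeks Gpihbp1 was at 1526, 1745, 1195, 1091 and 1258 CPM in WT libraries f, f3, m1, m2 and m3 and at 1704, 1332, 1736 and 1711 CPM in KO libraries f2, m1, m2 and m3. The KO libraries f2, m2 and m3 lay above 4 of the 5 WT libraries, but WT f3 was higher still, so the groups overlapped. Among the 3 same-numbered male pairs, which the labels do not state, the KO library was higher in 3 of 3. That count was 3 of 3 for Lpl and Tcf15 too, 2 of 3 for Fabp4 and Pparg, and 1 of 3 for Cd36, Fabp5, Meox2 and Slc27a3. The share of all genes with such a count was not computed. For Gpihbp1 the fit with a replicate block gave 0.33 (adjusted p = 0.99). Its log2 fold change was 0.33 ± 0.14 (SE; unadjusted p = 0.042, adjusted p = 1), a KO to WT ratio of 1.26 with a 95% interval of 1.01 to 1.57, and the exact permutation test gave p = 0.15, where 0.0079 is the smallest p this design allows.

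Lpl (ENSMUSG00000015568, chromosome 8, 68880491 to 68907448, plus strand) encodes the lipase itself, which in most tissues is made by parenchymal cells and carried to the endothelium. In 2-week WT libraries f1, f4, m2 and m3 it was at 338, 440, 361 and 555 CPM, and in KO libraries at 384, 385, 384 and 349 CPM. The KO values lay within the WT range, and the log2 fold change was -0.17 ± 0.18 (SE, adjusted p = 1). In 4-week WT libraries f, f3, m1, m2 and m3 Lpl was at 977, 1665, 1214, 816 and 1118 CPM, and in KO libraries f2, m1, m2 and m3 at 1142, 1436, 1493 and 1525 CPM. All 4 KO libraries lay below WT f3, 3 of them lay above the other 4 WT libraries, and the groups overlapped. KO was higher in 3 of 3 same-numbered male pairs, and with a replicate block the value was 0.32 (adjusted p = 0.99). KO against WT was 0.30 ± 0.23 on the log2 scale (SE, adjusted p = 1), with a 95% interval of the KO to WT ratio of 0.86 to 1.78.

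Transfer across the membrane was represented by Cd36 and Slc27a3. Cd36, the fatty acid translocase, was at 2952, 4062, 3601 and 3866 CPM in 2-week WT libraries f1, f4, m2 and m3 and at 2509, 3090, 3121 and 2457 CPM in KO libraries. All 4 KO libraries lay below the WT mean of 3620 CPM and 2 of them below every WT library, while WT f1 lay under KO f4 and m2. In the fit it was -0.37 ± 0.13 on the log2 scale (SE; unadjusted p = 0.027, adjusted p = 1), a KO to WT ratio of 0.77 with a 95% interval of 0.62 to 0.96. The exact permutation test gave p = 0.086, and the smallest p that 4 against 4 libraries allow is 0.029. With each of the 8 libraries left out in turn, the log2 CPM difference ran from -0.47 to -0.31. Without WT library f1 the genotypes no longer overlapped and the exact permutation p was 0.029, the smallest possible with the remaining libraries. As f1 was the WT library that lay under KO f4 and m2, this separation follows from which library was left out and adds no support. Leaving out the KO libraries m2 and m3, which held neutrophil transcripts, gave a log2 fold change of -0.35 (adjusted p = 0.84). At 4 weeks Cd36 was at 7318, 6011, 6833, 5642 and 5469 CPM in WT libraries f, f3, m1, m2 and m3 and at 4847, 6181, 8271 and 4567 CPM in KO libraries f2, m1, m2 and m3. KO libraries f2 and m3 were below, and KO m2 above, every WT library. The log2 fold change was -0.06 ± 0.18 (SE, adjusted p = 1; 95% interval of the ratio 0.72 to 1.27), and without KO m2, the library with the most Eng left, it was -0.23 (adjusted p = 1). Within the first cluster of libraries the KO levels were 6181 and 8271 CPM and the WT levels 5642 to 7318 CPM. Within the second cluster KO levels were 4567 and 4847 CPM and WT levels 5469 and 6011 CPM. In that cluster Meox2 was also apart, at 317 to 322 CPM in KO and 426 to 443 CPM in WT. Pparg was apart the other way, at 110 to 160 CPM in KO and 87.5 to 110 CPM in WT. With 2 libraries a group, in a split made after seeing the data, such a separation cannot be read as a difference. The share of all genes apart in this way was not computed, and no test was run.

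Slc27a3 (ENSMUSG00000027932, chromosome 3, 90385239 to 90389938, minus strand), which encodes FATP3, had the lowest mean per kb of the members in every group. It had 5, 378, 617 and 1 counts in 2-week WT libraries f1, f4, m2 and m3 and 0, 1407, 544 and 0 counts in KO libraries. It was thus found in KO f4 at 41.5 CPM and KO m2 at 18.3 CPM and not at all in KO f1 and m3, where a count of 0 allows up to 3 counts, or 0.0734 to 0.112 CPM over the 2-week libraries. Its log2 fold change, 1.08 ± 3.07 (SE, adjusted p = 1), was not informative, as the sign turned with a replicate block (-0.93). At 4 weeks Slc27a3 was at 25.4, 54.7, 22.1, 49.4 and 35.3 CPM in WT libraries f, f3, m1, m2 and m3 and at 55.2, 32.7, 17.2 and 24.9 CPM in KO libraries f2, m1, m2 and m3. The 4-week groups overlapped, and the fitted log2 difference was -0.19 ± 0.37 (SE, adjusted p = 1). By the highest level in any library the other FATP genes were lower: Slc27a4 reached 19.9 CPM and Slc27a1 5.76 CPM. Slc27a2 and Slc27a5 stayed at or below 0.94 and 0.15 CPM, and Slc27a6 had no count in any library. At 4 weeks Slc27a4 reached 9.83 CPM in WT and 9.93 CPM in KO, below Slc27a3 in every library. In 2-week WT their ranges overlapped, at 0.027 to 18.93 CPM for Slc27a3 and 0 to 17.97 CPM for Slc27a4, so no order is given there.

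Fabp4 and Fabp5 encode the cytosolic fatty acid binding proteins of endothelium and lie near each other on chromosome 3. Fabp4 was at 11638, 11731, 11916 and 10287 CPM in 2-week WT libraries f1, f4, m2 and m3 and at 14158, 12302, 9640 and 10006 CPM in KO libraries. The KO libraries f1 and f4 (females) were above every WT library. The KO libraries m2 and m3 (males), which are those with the high neutrophil sums, were below every one. The part of sex and of neutrophil transcripts cannot be told apart in these 4 libraries. The means of 11393 (WT) and 11526 CPM (KO) differed by less than the spread. In 4-week WT libraries f, f3, m1, m2 and m3 Fabp4 was at 10074, 12625, 13116, 10028 and 10511 CPM, and in KO libraries f2, m1, m2 and m3 at 12803, 9514, 11574 and 10640 CPM. The groups overlapped at both times. The 95% interval of the KO to WT ratio was 0.88 to 1.14 at 2 weeks and 0.81 to 1.26 at 4 weeks, the first being the narrowest interval of the set. The log2 fold changes were 0.005 ± 0.080 and 0.01 ± 0.14 (SE, adjusted p = 1 for both), and the sign of either changed under another scaling or set of terms.

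Fabp5 (ENSMUSG00000027533, chromosome 3, 10012548 to 10016607, plus strand) was far below Fabp4. At 2 weeks it was at 451, 344, 263 and 425 CPM in WT libraries f1, f4, m2 and m3 and at 366, 304, 340 and 286 CPM in KO libraries. KO values lay within the WT range, and the log2 fold change was -0.20 ± 0.21 (SE, adjusted p = 1). At 4 weeks Fabp5 was at 278, 457, 410, 359 and 375 CPM in WT libraries f, f3, m1, m2 and m3 and at 453, 283, 391 and 356 CPM in KO libraries f2, m1, m2 and m3. All KO values lay within the WT range again, and the log2 fold change was 0.00 ± 0.19 (SE, adjusted p = 1; 95% interval of the ratio 0.74 to 1.36). The annotation names 1 pseudogene after this gene, Fabp5l2, and how reads shared with it were counted is not given in the sources used here. The remaining FABP genes examined, Fabp1, Fabp2, Fabp3, Fabp6 and Fabp7, reached at most 6.33 CPM (Fabp3).

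Of the transcription factor genes, Meox2 (ENSMUSG00000036144, chromosome 12, 37108540 to 37179534, plus strand) was the most abundant. It was at 292, 453, 263 and 241 CPM in 2-week WT libraries f1, f4, m2 and m3 and at 155, 249, 457 and 215 CPM in KO libraries. KO library m2, one of those with neutrophil transcripts, was the highest of all 8, while KO f1 and m3 were below every WT library. The log2 fold change was -0.23 ± 0.38 (SE, adjusted p = 1), and without KO m2 and m3 it was -0.90 ± 0.36 (SE, adjusted p = 0.84). In 4-week WT libraries f, f3, m1, m2 and m3 Meox2 was at 383, 443, 438, 365 and 426 CPM, and in KO libraries f2, m1, m2 and m3 at 322, 395, 447 and 317 CPM. KO libraries f2 and m3 were below all WT libraries and KO m2 was the highest. At this time the fit gave -0.16 ± 0.14 on the log2 scale (SE, adjusted p = 1; 95% interval of the ratio 0.72 to 1.12).

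Tcf15 (ENSMUSG00000068079, chromosome 2, 152143561 to 152149097, plus strand), the gene of the bHLH partner of MEOX2, was at low levels. At 2 weeks it was at 33.7, 18.9, 27.0 and 23.4 CPM in WT libraries f1, f4, m2 and m3 and at 43.5, 46.8, 40.7 and 14.7 CPM in KO libraries. The KO libraries f1, f4 and m2 lay above every WT library and KO m3 below every one of them, and the fit gave 0.45 ± 0.64 on the log2 scale (SE, adjusted p = 1). At 4 weeks Tcf15 was at 38.6, 61.3, 43.9, 13.0 and 26.8 CPM in WT libraries f, f3, m1, m2 and m3 and at 29.5, 47.8, 37.4 and 35.0 CPM in KO libraries f2, m1, m2 and m3. All KO values lay within the WT range, KO was higher in 3 of 3 same-numbered male pairs, and the log2 fold change was 0.17 ± 0.42 (SE, adjusted p = 1).

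Pparg (ENSMUSG00000000440, chromosome 6, 115360951 to 115490399, plus strand) encodes PPAR gamma. In 2-week WT libraries f1, f4, m2 and m3 it was at 34.0, 41.1, 127 and 15.0 CPM, and in KO libraries at 35.5, 39.6, 50.8 and 45.1 CPM. WT library m2 stood far above the rest, KO values lay within the WT range, and the log2 fold change was -0.25 ± 0.64 (SE, adjusted p = 1), with the opposite sign under voom with quality weights (0.41). In 4-week WT libraries f, f3, m1, m2 and m3 Pparg was at 131, 110, 133, 116 and 87.5 CPM, and in KO libraries f2, m1, m2 and m3 at 160, 104, 192 and 110 CPM. KO f2 and m2 exceeded every WT library and the groups overlapped; KO against WT was 0.33 ± 0.20 on the log2 scale (SE, adjusted p = 1; 95% interval of the ratio 0.91 to 1.73). Without KO m2 the value was 0.14.

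**Figure D3:**
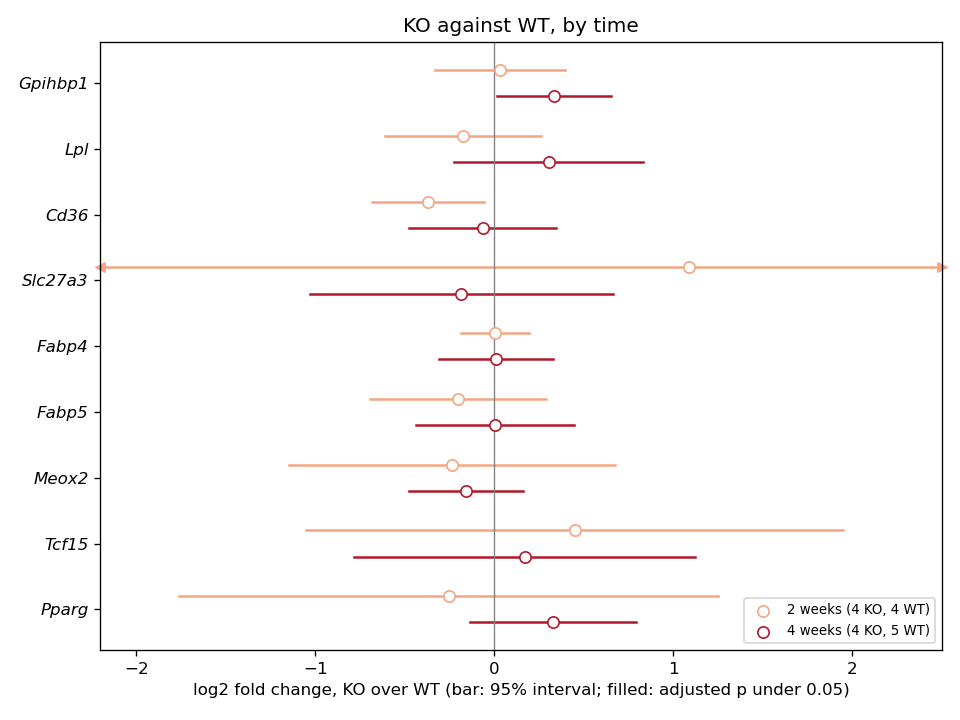
Log2 fold change of KO over WT for each member at 2 weeks (light) and 4 weeks (dark), with the 95% interval as a bar; an open symbol means an adjusted p of 0.05 or more, and arrowheads mark intervals that run past the axis. All symbols are open, and the intervals of Fabp4 are short while that of Slc27a3 at 2 weeks exceeds the axis.

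Whether the KO effect differed between the times was tested as the effect at 4 weeks less that at 2 weeks in 1 fit of all 17 libraries. No member was called by edgeR, against 0.104% of 13515 genes (14 genes), and 0 of the 9 had an unadjusted p under 0.05, against 9.48% of all genes. DESeq2 called none of the members either, against 6.87% of all genes (929 genes). The difference on the log2 scale was 0.28 ± 0.24 for Cd36, 0.27 ± 0.20 for Gpihbp1, 0.43 ± 0.32 for Lpl and 0.54 ± 0.63 for Pparg (SE, adjusted p = 1 for each). Over the 9 members the median difference was 0.18, and over all genes tested it was 0.03. The change in sign of the Lpl effect, from -0.17 at 2 weeks to 0.30 at 4 weeks, was therefore within the error.

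Between 2 and 4 weeks Gpihbp1 and Lpl rose in both genotypes. In WT, 2 of the 9 members were called, Gpihbp1 and Lpl, both higher at 4 weeks, where 8.04% of all genes tested were called and 5.74% were called as higher. In KO, 3 of the 9 were called, Gpihbp1, Lpl and Cd36, all higher, against 7.56% of all genes called and 5.7% called as higher. No member was called lower, where 2.29% of genes in WT and 1.86% in KO were. Every 4-week library differed from every 2-week library in genes detected and mitochondrial share, so time cannot be told apart from whatever else set the libraries apart. The median gene shifted by 0.27 in WT and 0.34 in KO on the log2 scale, and member values are to be read against that shift. Kept to genes with at least 10 counts in every library, the median shift was 0.00 in WT and -0.02 in KO, and called genes split into 310 higher and 329 lower in WT against 776 and 310 without that filter.

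Lpl showed the largest called rise of the set. In CPM without mitochondrial counts it ran from 461 to 766 at 2 weeks and from 865 to 1830 at 4 weeks in WT, and from 494 to 524 and from 1251 to 1633 in KO. The times did not overlap in either genotype, as was the case for 17.6% of all genes in WT and 21.5% in KO. The log2 fold change was 1.15 ± 0.22 in WT (SE, adjusted p = 0.0056) and 1.57 ± 0.24 in KO (SE, adjusted p = 0.0013), or 2.21 and 2.98 times. Gpihbp1 without mitochondrial counts lay between 890 and 990 CPM at 2 weeks and between 1157 and 1917 at 4 weeks in WT. In KO it lay between 752 and 1325 CPM at 2 weeks and between 1443 and 1867 at 4 weeks, again without overlap. Its log2 fold change was 0.65 ± 0.14 in WT (SE, adjusted p = 0.011) and 0.93 ± 0.15 in KO (SE, adjusted p = 0.0020). Both genes remained called in both genotypes under each alternative run and with any 1 library left out.

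Cd36 ran from 4026 to 5342 CPM without mitochondrial counts at 2 weeks and from 5858 to 7676 at 4 weeks in WT, and from 3224 to 4246 and from 4889 to 8763 in KO. The times did not overlap in either genotype, and the log2 fold change was 0.48 ± 0.16 in WT (SE, adjusted p = 0.10) and 0.75 ± 0.18 in KO (SE, adjusted p = 0.018). The KO call was lost without 2-week KO library m3 (0.70, adjusted p = 0.053) and without both m2 and m3 (0.78, adjusted p = 0.076). In WT, Cd36 was called by DESeq2 (0.52, adjusted p = 0.020) and among genes with at least 10 counts in every library (0.59, adjusted p = 0.031). The WT and KO values did not differ beyond their error (difference 0.28, given with the other interaction values).

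Pparg had log2 fold changes of 0.83 ± 0.44 in WT (SE, adjusted p = 0.38) and 1.37 ± 0.46 in KO (SE, adjusted p = 0.093), and edgeR called neither. The KO value was called by DESeq2 (1.41, adjusted p = 0.022) and among genes with at least 10 counts in every library (1.45, adjusted p = 0.047). Its WT value rested on 2-week WT library m2, where the level was 127 CPM: without that library the log2 fold change was 1.72 in WT (adjusted p = 0.0080) and 1.42 in KO (adjusted p = 0.010). Fabp4 was the member nearest to a fall, at -0.30 ± 0.11 in WT (SE, adjusted p = 0.14) and -0.31 ± 0.12 in KO (SE, adjusted p = 0.15). In CPM of all counts its 4-week to 2-week ratio was 0.99 in WT and 0.97 in KO, and without mitochondrial counts 0.80 and 0.77, so its apparent steadiness depended on the denominator. Fabp5 (-0.27 in WT, -0.09 in KO), Meox2 (0.09, 0.12) and Tcf15 (0.21, -0.12) had log2 fold changes smaller than 2 of their SE and were not called. Slc27a3, with 2-week libraries at 0, had 2.10 ± 1.87 in WT and 0.92 ± 1.89 in KO (SE, adjusted p = 0.73 and 0.93).

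**Figure D4:**
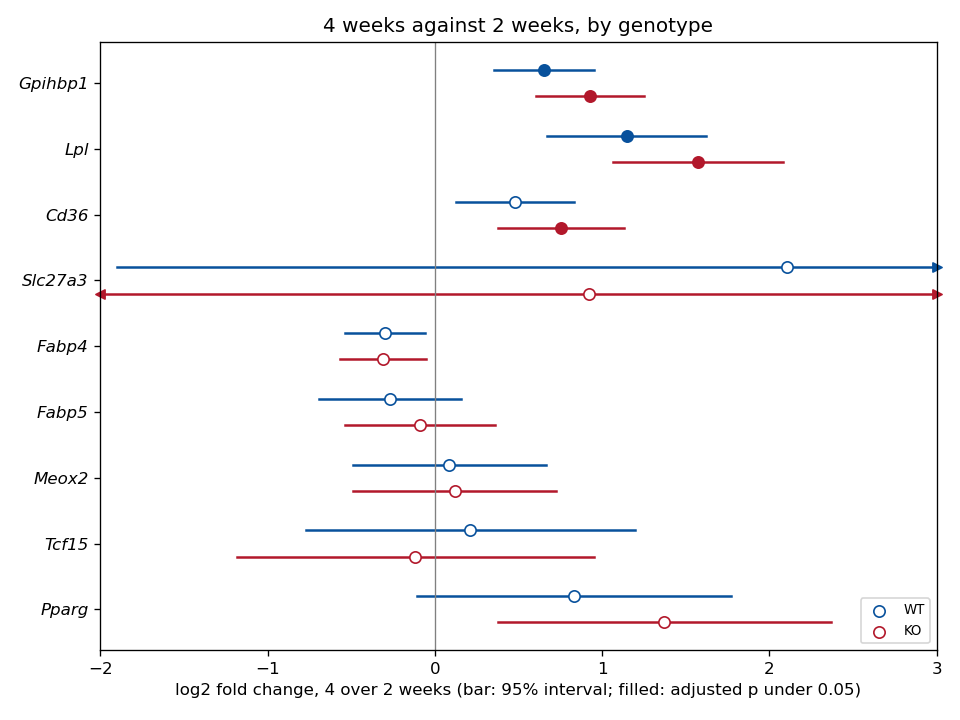
Log2 fold change of 4 over 2 weeks for each member in WT (blue) and KO (red), with the 95% interval as a bar; filled symbols have an adjusted p under 0.05, and arrowheads mark intervals that run past the axis. Gpihbp1 and Lpl are filled in both genotypes and Cd36 in KO only; the difference between genotypes was not called for any member.

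The members did not vary as one block between libraries. Within 4-week WT the coefficient of variation of CPM was 8.47% for Meox2, 12.7% for Cd36, 13.2% for Fabp4, 27.7% for Lpl and 49.4% for Tcf15. Over the 9 libraries at 4 weeks, profiles of log2 CPM centred on their own mean were compared by root mean square difference among 6912 genes with a mean log2 CPM of at least 4. Fabp4 took place 3 by likeness to Fabp5 (0.13), after S100a11 (0.12) and Tbcc (0.12). Meox2 was at rank 70 of 6911 by likeness to Cd36 (0.18), and Lpl to Gpihbp1 at 0.24. The genes nearest to Cd36 were Birc6, Abi1 and Acly (0.11 to 0.12), those nearest to Fabp4 were Sec61b, 1600012H06Rik and Ankrd10 (0.09 to 0.10), and those nearest to Meox2 were 1700018L02Rik, Elovl5 and Cd164 (0.09 to 0.11). For Gpihbp1 they were Jpt2, Nenf and Chchd3 (0.11 to 0.12). These points share libraries and depth, and likeness is given as a description.

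Cell types other than endothelium can also express these genes, and bulk counts cannot tell fewer cells of a type from less RNA per cell. Of 7 adipocyte markers, Lep had no count in any library, Plin1 reached at most 0.29 CPM, Adipoq at most 22.7 CPM and Cfd at most 32.4 CPM. The adipocyte sum of 227 to 306 CPM in 2-week WT, 89.1 to 284 in 2-week KO, 220 to 372 in 4-week WT and 163 to 252 CPM in 4-week KO came mostly from Lipe (206 to 297 CPM in 2-week WT). The part of adipocyte transcripts in the member levels was not tested. Macrophages also express Cd36 and Lpl: the sum of 9 macrophage markers was 7.30 to 60.3 CPM in 2-week WT and 25.6 to 54.6 CPM at 4 weeks, but 384 and 267 CPM in 2-week KO libraries m2 and m3, where Lyz2, which neutrophils also express, reached 340 CPM. The other 8 went both ways: Adgre1 reached 20.3 CPM in 2-week KO with no count in 2-week WT, and C1qc reached 3.84 and 1.70 CPM, while C1qb had no count in 2-week KO and was at 0.21 to 21.8 CPM in 2-week WT. Csf1r reached 17.3 CPM in 2-week KO and 19.2 in 2-week WT, C1qa 1.92 and 7.09, Cd68 0 and 2.94, and Cd163 0.034 and 0 CPM, and Marco had no count in either. In KO m2 and m3 Lpl was at 384 and 349 CPM and Cd36 at 3121 and 2457 CPM, the latter the lowest Cd36 level of the 8 libraries, and the part of macrophage transcripts in these values was not tested. The sum of 10 erythroid markers was 61.4 to 195 CPM in 2-week WT, 278 to 1249 in 2-week KO, 165 to 1285 in 4-week WT and 617 to 2904 CPM in 4-week KO libraries, and its part in the KO values was not tested. Of the sinusoidal markers, Il6st had the highest mean in every group. Its level was 124 to 162 CPM in 2-week WT and 91.6 to 133 CPM in 2-week KO. At 4 weeks Il6st was at 106 to 616 CPM in WT and 128 to 554 CPM in KO. The sinusoidal sum, at 174 to 353 CPM at 2 weeks and 349 to 1096 at 4 weeks, was higher at the time at which Gpihbp1, Lpl and Cd36 were higher. So was the sum of 8 endothelial markers, at 3567 to 4918 CPM in 2-week WT and 8285 to 10460 in 4-week WT, and at 2855 to 3531 CPM in 2-week KO and 7502 to 9998 in 4-week KO. The sum of 9 stromal markers was 1464 to 1966 CPM in 2-week WT and 1126 to 1401 in 2-week KO, without overlap, and 1553 to 3640 CPM in 4-week WT and 1132 to 3343 in 4-week KO. It came mostly from Cxcl12 and Kitl, which endothelium can also express. The sum of 10 arterial capillary markers was 2431 to 3386 CPM in 2-week WT, 1484 to 2788 in 2-week KO, 2968 to 4109 in 4-week WT and 2895 to 3632 CPM in 4-week KO, and 7 megakaryocyte markers summed to at most 82.8 CPM. The part of these lists in the member values was not tested.

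The wider list of 116 genes of lipolysis, uptake, regulation, oxidation, storage and synthesis was read beside the members. None of the 76 tested at 2 weeks and none of the 96 at 4 weeks was called in KO against WT by edgeR. At an unadjusted p under 0.05 there were 8 (10.5%, against 2.63% of all genes) and 7 (7.29%, against 2.77%). Genes of regulation made up 4 of them at each time, and those of uptake and of oxidation 1 each at 2 weeks and 0 at 4 weeks. The list was chosen with earlier results of these data known, so its shares here and below are not a test of the list. DESeq2 called 5 at 2 weeks (6.58%, against 1.42% of all genes) and 1 at 4 weeks (1.04%, against 0.112%). Those with the smallest p at 2 weeks were Flt1, a VEGF receptor gene (-0.69 ± 0.13), Aplnr, the apelin receptor (-0.70 ± 0.17), Meox1, a paralog of Meox2 (1.07 ± 0.26), and Acsl5, an acyl-CoA synthetase (0.83 ± 0.23; log2 fold change ± SE, adjusted p = 0.96 for Flt1 and 1 for the others). Meox1 was at 69.6 to 134 CPM in WT and 201 to 286 CPM in KO at 2 weeks, without overlap, and at 77.8 to 199 and 145 to 230 CPM at 4 weeks, with overlap. DESeq2 called these 4 and Acsl1, another acyl-CoA synthetase gene (adjusted p = 0.041), which edgeR did not call (unadjusted p = 0.096, adjusted p = 1). Acsl1 was at 0.026 to 44.7 CPM in 2-week WT and at 0 to 7.09 CPM in 2-week KO, with 2 of 4 KO libraries at 0, so the groups overlapped.

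At 4 weeks the genes of the list with the smallest p were Angpt2 (1.52 ± 0.27), Apln (1.13 ± 0.32), Scarb1, an endothelial lipoprotein receptor (-0.48 ± 0.17), and Fitm2, which acts in lipid droplet formation (-1.08 ± 0.39; log2 fold change ± SE, adjusted p = 1 for each). Angpt2, whose product is a ligand of the Tie2 receptor, was at 28.5 to 62.0 CPM in WT and 120 to 192 CPM in KO, and it was the 1 gene of the list that DESeq2 called. Scarb1 was at 1043 to 1721 CPM in WT and 703 to 1053 CPM in KO. In the difference of KO effects none of 93 genes was called by edgeR, 10 had an unadjusted p under 0.05 (10.8%, against 9.48% of all genes) and DESeq2 called 5 (5.38%, against 6.87% of all genes). Lipa, lysosomal acid lipase (0.93 ± 0.34, adjusted p = 0.39), and Acadvl, the very long-chain acyl-CoA dehydrogenase (1.19 ± 0.49, adjusted p = 0.43), had the smallest p on the positive side. Dgat1 and Fitm2 had it on the negative side, and both had no count in the 2-week WT libraries, so no fold is given. The genes that DESeq2 called in this contrast were Dgat1, Fitm2, G0s2, Pcsk6 and Acsl5.

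Between times, 15 of 93 tested genes of the list were higher and 1 lower in WT (17.2% called, against 8.04% of all genes), and 10 were higher and 1 lower in KO (11.8%, against 7.56%). Id3, an inhibitor of bHLH factors of the kind that TCF15 is, was higher at 4 weeks in WT (0.84 ± 0.10, adjusted p = 0.00019) and in KO (1.06 ± 0.11, adjusted p = 6e-05). Id1 was higher in WT (1.02 ± 0.18, adjusted p = 0.0028) and in KO (1.09 ± 0.19, adjusted p = 0.0030). Nrp1, a VEGF co-receptor gene, was likewise higher in WT (1.44 ± 0.22, adjusted p = 0.0013) and in KO (1.08 ± 0.23, adjusted p = 0.012). Lipa was called higher in KO (1.61 ± 0.26, adjusted p = 0.0019), with 0.69 ± 0.24 in WT (adjusted p = 0.11). Scd1, a fatty acid desaturase, was called lower in WT (-2.31 ± 0.55, adjusted p = 0.021), with -1.61 ± 0.59 in KO (adjusted p = 0.12). Ucp2, a mitochondrial carrier, was called lower in KO (-0.88 ± 0.24, adjusted p = 0.041), with -0.73 ± 0.23 in WT (adjusted p = 0.067). Dgat2 was called higher in both genotypes: it was at 0 in all 4 KO libraries and at most 0.027 CPM in WT at 2 weeks, and at 2.98 to 9.15 CPM in KO and 3.19 to 12.7 CPM in WT at 4 weeks. The list's count in WT, 16 with all libraries, was 7 to 9 without 2-week WT library f1 or m2 or 4-week WT library f, f3 or m3. The count in KO, 11 with all libraries, was 6 or 7 without 4-week WT library f, f3, m1 or m3, which enter the estimate of the spread.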

How the data were processed

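Each library has 1 deposited table, in which the authors gave unnormalized read counts by Ensembl gene. Per the submitters' processing notes, cutadapt, STAR and HTSeq 0.6.1p1 were used with builds GRCm38 and mm10; the annotation and strand setting are not given in the sources used here, and reads were not separated by molecular identifiers, so floors cover counting error only. Symbols, positions and exon lengths came from GENCODE M21 (GRCm38), which matched 49326 of 49585 identifiers. CPM is the count over the library total.

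Counts were tested with edgeR 4.0.16 in R 4.3.3 (filterByExpr on genotype, TMM, robust quasi-likelihood fit, Benjamini-Hochberg over all genes of a fit, threshold 0.05). Sex and genotype were the terms of a separate fit for each time. A joint fit of the 17 libraries, with sex and 1 mean for each of the 4 groups, gave the differences between times and between KO effects. Intervals are 95% from the quasi-likelihood SE. Single values were compared by two-sided exact permutation of log2 CPM (prior count 2). Scripts were tested on simulated counts. Alternatives were DESeq2 1.42.0, limma 3.58.1 voom, other scalings and filters, no sex term, a replicate block and left-out libraries; a cluster term for the libraries at 4 weeks was added after seeing the data.

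The 9 members and the gene lists were chosen with earlier results of these data known. All 9 members were named, and of the wider list up to 3 called genes per direction with the smallest p, or 2 with a mean count of at least 50 where none was called; Acsl1, G0s2 and Pcsk6 were named after their values were seen. At 4 weeks the deviations of same-numbered males from their group means correlated at 0.35, 0.11 and 0.48 over 6431 genes, so those numbers were treated as pairs from the data. This is a hint only: WT m1, m2 and m3 correlated at up to 0.25, 0.14 and 0.40 with a KO library of another number, for m2 above its own pair, and the libraries of each pair share a cluster. At 2 weeks the correlations were 0.03, 0.01, -0.02 and 0.03 over 4202 genes.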

Additional observations from a re-analysis of the deposited data

Results flagged for a closer look

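Over 36 groups of 4 or 5 libraries (9 members in 4 groups), 3 held a library far from the rest of its group by the gap relative to the range, where chance gives about 1 in 20. In 4-week KO, library m1 had Gpihbp1 at 1332 CPM against 1704 to 1736 CPM in the other libraries. In 2-week KO, library m3 had Lpl at 349 CPM, with the others between 384 and 385 CPM, a gap that is small in size and large only beside the close agreement of the other libraries. In 2-week WT, library m3 had Fabp4 at 10287 CPM, with the others at 11638 to 11916 CPM. KO library m3 at 2 weeks is also one of the libraries with neutrophil transcripts, and whether that bears on its Lpl value was not tested.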

How the results depend on the processing

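No member was called in KO against WT, or in the difference of KO effects, under any alternative run, including the replicate block, the cluster term and each library left out. The replicate block changed no call of a member; over the whole table it took the 14 genes called for the difference of effects to 0. Signs turned at values near 0 or with large SE, and the cause was not tested. At 2 weeks these were Fabp4 with DESeq2 (-0.00514), its size factors (-0.00515) and at least 10 counts (-0.0158), Pparg with the replicate block (0.0600) and voom (0.409), Slc27a3 with the replicate block (-0.930) and Gpihbp1 with voom (-0.0219). At 4 weeks Fabp5 was at -0.00309 with DESeq2, -0.00312 with its size factors, -0.00177 with no filter, -0.00027 with at least 10 counts, -0.0145 without a sex term, -0.00182 with the replicate block and -0.0416 with the cluster term. Fabp4 was at -0.0123 without a sex term and -0.0128 with the cluster term, and voom gave Tcf15 -0.115 and Slc27a3 0.0646. The difference of KO effects for Slc27a3 was 0.313 with the replicate block, and the KO time effect of Fabp5 was 0.00960 without KO m2 and m3.

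With 1 library left out, KO against WT at 2 weeks ran from -0.0511 to 0.0633 for Fabp4, -0.115 to 0.131 for Gpihbp1, -0.281 to 0.0214 for Lpl, -0.591 to 0.0481 for Meox2, -0.561 to 0.590 for Pparg and -1.54 to 3.62 for Slc27a3. At 4 weeks it ran from -0.231 to 0.0905 for Cd36, -0.0715 to 0.105 for Fabp4, -0.136 to 0.102 for Fabp5, -0.138 to 0.530 for Tcf15 and -0.492 to 0.0418 for Slc27a3. The difference of KO effects ran from -0.0830 to 0.0746 for Fabp4, -0.233 to 0.437 for Meox2, -0.300 to 0.823 for Pparg and -3.03 to 0.0578 for Slc27a3. Between times it ran from -0.0317 to 0.332 (WT) and -0.0794 to 0.551 (KO) for Meox2, -0.0477 to 0.431 (WT) and -0.397 to 0.131 (KO) for Tcf15 and -0.228 to 0.0167 (KO) for Fabp5. The exact test had 0 to 1 member at p under 0.05.

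DESeq2 called 5 genes of the wider list at 2 weeks, 1 at 4 weeks and 5 in the difference, where edgeR called 0, and 23 in KO between times against 11. With 1 library left out that list had 7 to 20 called in WT and 6 to 15 in KO between times. Slc27a3 had 0 counts in 2 of 4 KO libraries and 1 count in a WT library at 2 weeks, which limits its fold changes there.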
